A study of Rattus norvegicus with 10 samples.

Results

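Neuropeptides are small messengers that neurons of the spinal dorsal horn and the afferent fibres that end there store in dense-core granules and release beside glutamate, GABA or glycine. Each is made as a longer precursor, which convertases cut and further enzymes trim and amidate before release, and most act on G protein-coupled receptors of nearby neurons. They are studied in opioid tolerance because substance P, CGRP, cholecystokinin and neuropeptide FF are known to modulate nociception or to oppose opioid analgesia, while galanin, somatostatin, neuropeptide Y and neurotensin are mostly known for inhibitory or analgesic actions in this tissue. The mRNAs of 10 such precursors were followed in the rat lumbar spinal cord, namely Tac1 (substance P and neurokinin A), Calca and Calcb (α-CGRP and β-CGRP), Sst, Npy, Cck, Grp, Nts, Gal and Npff. They were the mRNA probes whose RefSeq accession belongs to these genes, and 9 of the 10 genes had a probe. Npff had no matching probe and was not analysed here. The 9 genes had 14 of the 24684 probes of the array, with 4 for Tac1, 3 for Calca and 1 for each other gene.

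The rats were male Sprague Dawley rats of 240 to 260 g. In the morphine tolerance (MT) group, rats 1 to 5 were injected intrathecally 2 times a day for 7 days with 10 μg morphine in 10 μl, and in the normal saline (NS) group, rats 6 to 10 received 10 μl of saline on the same schedule. By the study's methods, tissue was taken on the next day, from rats anesthetized 1 hour after a further morning injection of morphine or saline. Effects of this last dose and of the repeated doses cannot be told apart in this design. Total RNA of the lumbar enlargement of each rat was labelled with Cy3 and hybridized to 1 single-colour rat lncRNA and mRNA array, so n = 5 rats in each group. The tissue holds the cell bodies of dorsal horn neurons and motor neurons and the terminals of afferent fibres, whereas the cell bodies of those fibres lie outside it in the dorsal root ganglia. Arrays with the same scan date and time were taken as 1 slide, so the slides are inferred from the scan records. By this rule, slide 1 carried MT rats 1, 3, 4 and 5, slide 2 carried MT rat 2 with NS rats 6, 7 and 10, and slide 3 carried NS rats 8 and 9. Slide 2 alone therefore held both groups, and slide 3 had the fewest spots well above background (58.6% and 63.8%, against 77.4% to 83.9% on the other arrays).

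All levels below are quantile-normalized log2 intensities, and all differences are MT minus NS on that scale, in which 0.58 would be close to a 1.5-fold difference. Levels of different probes were not compared with each other, since probes differ in brightness. In bulk tissue, fewer cells of a type and less RNA per cell cannot be told apart. Of the 14 probes, 13 were well above background on all 10 arrays, and their background-subtracted intensities ranged from 177 (Grp) to 20283 (Sst), against a local background of 14 to 28. The exception was the remaining Calca probe, which is described with that gene.

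By the annotation of GRCr8, Tac1 lies on chromosome 4 (36645344 to 36653548) and Npy on the same chromosome at 80212111 to 80219310. Calca and Calcb are close neighbours on chromosome 1, at 178312636 to 178317588 and at 178399634 to 178404654, and Gal lies on that chromosome at 210079709 to 210084572. Sst is on chromosome 11 (90461546 to 90462823), Cck on chromosome 8 (130031012 to 130037702), Grp on chromosome 18 (61658655 to 61672037) and Nts on chromosome 7 (39451484 to 39460888). The array was designed on an older build, so these are positions of the genes and not of the probes.

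Start regions of 3 of these genes are shown because CREB, the factor that binds the cAMP response element, is a known regulator of neuropeptide genes and is linked to opioid dependence, and because these genes mark the range of the results. Calca was the gene that met the fold and P criteria of the study, and Gal had the smallest P among the probes above background. Sst, which differed little, was the only one with the full element among the members whose sequence was at hand. Each line runs 5′ to 3′ on the strand of the gene, from 250 bases before to 50 bases after the start in the RefSeq table of GRCr8. The windows are chr1:178317480-178317779 on the minus strand for Calca, chr1:210084523-210084822 on the minus strand for Gal and chr11:90461296-90461595 on the plus strand for Sst. The start used for Calca lies inside the gene span given above and not at its outer end, whereas those of Gal and Sst are the ends of the spans. Capitals mark the full element TGACGTCA, the core TGACG on either strand and the letters TATAAA.
Calca: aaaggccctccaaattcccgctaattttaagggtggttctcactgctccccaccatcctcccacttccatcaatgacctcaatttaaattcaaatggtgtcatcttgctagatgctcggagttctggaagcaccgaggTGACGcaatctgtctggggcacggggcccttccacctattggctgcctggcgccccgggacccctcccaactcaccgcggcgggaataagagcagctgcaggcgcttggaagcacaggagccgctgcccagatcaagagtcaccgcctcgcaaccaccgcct
Gal: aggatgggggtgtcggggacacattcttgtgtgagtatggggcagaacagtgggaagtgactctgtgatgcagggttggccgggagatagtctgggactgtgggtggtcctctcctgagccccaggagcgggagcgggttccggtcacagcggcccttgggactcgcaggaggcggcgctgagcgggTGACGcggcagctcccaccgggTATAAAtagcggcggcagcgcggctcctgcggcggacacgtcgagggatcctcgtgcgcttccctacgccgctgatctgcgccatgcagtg
Sst: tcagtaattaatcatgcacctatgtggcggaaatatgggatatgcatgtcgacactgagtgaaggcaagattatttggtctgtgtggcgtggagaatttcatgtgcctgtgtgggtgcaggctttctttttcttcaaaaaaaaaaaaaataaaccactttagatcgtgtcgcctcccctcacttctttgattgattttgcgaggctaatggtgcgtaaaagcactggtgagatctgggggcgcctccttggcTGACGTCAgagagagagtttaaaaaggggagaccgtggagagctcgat

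Both strands were searched for 5 motifs in the 7 members with a sequence in the table, Tac1, Calca, Sst, Npy, Grp, Nts and Gal. TGACG stood in 6 of the 7 windows, Npy being the exception, and in 21.2% of all 33469 windows of the same length. It began 112 bases before the start in Calca, 63 in Gal and 86 in Grp (on the other strand). The full TGACGTCA, which contains TGACG, stood in Sst alone and in 1.83% of all windows. In Sst it began 2 bases after the start and not before it. TATAAA was present in Gal and Grp and in 14.2% of all windows. The AP-1 letters TGANTCA were found in Nts only (7.33% of all windows) and the E-box letters CACGTG in Tac1 only (6.42%). Letters in a window are a description and not evidence of binding.

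The MT and NS groups were first compared for all 9 genes. The means of 6 genes (Calca, Calcb, Tac1, Npy, Sst, Nts) were higher in the MT group, and those of 3 (Gal, Grp, Cck) were lower. Of all RNAs tested, 49.8% had a higher mean in the MT group. No gene passed a Benjamini-Hochberg adjusted p of 0.05 in limma's moderated test, with adjusted p values from 0.176 to 0.974 over the 13 bright probes, a threshold that 0.197% of the 20284 RNAs tested passed. At an unadjusted P of 0.05, which 16.4% of all RNAs passed, 2 genes passed, Calca and Gal. Calca alone also had a linear fold above 1.5, the study's criteria, which 1.74% of all RNAs met as higher and 0.996% as lower in the MT group. That call was lost with the slide as a fixed or as a random block and without the arrays of slide 3. For NM_001033955.1 limma's unadjusted P was then 0.0884, 0.0514 and 0.0535, with larger differences of 0.97, 0.80 and 0.72 against 0.65 in the fit without a block. For none of the 13 bright probes were the groups free of overlap, as they were for 5.6% of all RNAs. The differences of the 13 had a median of 0.13, against −0.0013 for all RNAs tested, 95% of which lay between −0.48 and 0.72. Gal and Grp lay below this range. In the plot of single rats, the groups overlap in every panel.

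**Figure D1:**
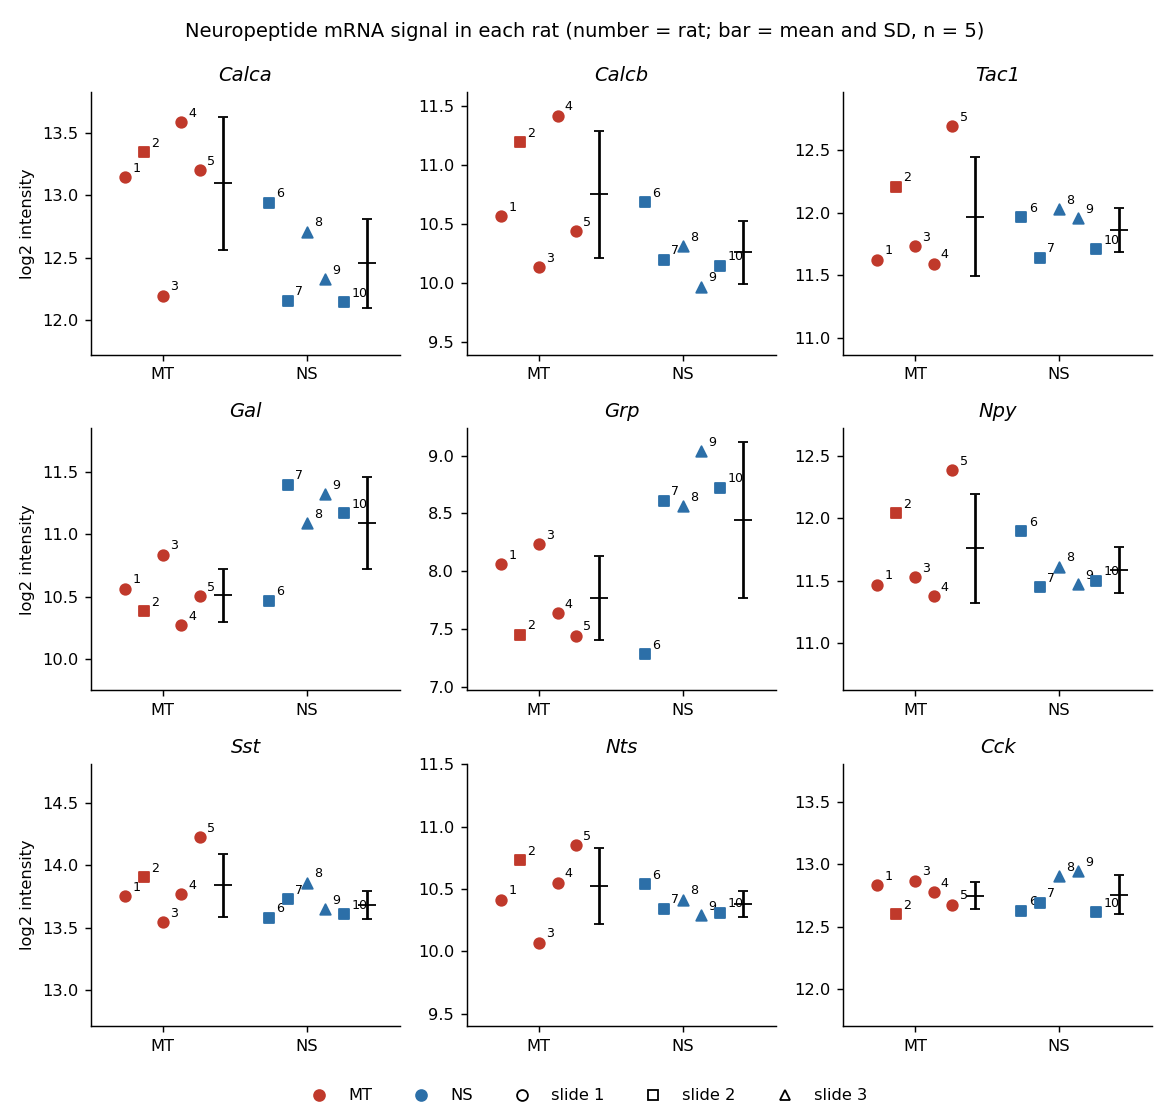
Quantile-normalized log2 intensity (vertical axis) of the 9 neuropeptide genes in each rat of the MT group (red) and the NS group (blue), with the rat number beside each point, the shape giving the slide, and the bar giving the mean and SD of 5 rats. The 4 bright Tac1 probes and the 2 bright Calca probes are averaged; NS rat 6 lies among the MT rats for Gal and below them for Grp, and MT rat 3 lies among the NS rats for Calca.

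The CGRP genes came first among the precursors that afferent fibres and motor neurons share. Calca gives calcitonin or α-CGRP by alternative splicing, and α-CGRP is a vasodilator and excitatory peptide of nociceptive afferents that is also made by motor neurons. With the probe for NM_001033955.1, the Calca level was 13.21, 13.42, 12.28, 13.65 and 13.26 in MT rats 1 to 5 and 12.97, 12.18, 12.78, 12.42 and 12.19 in NS rats 6 to 10. Thus 4 MT rats lay above every NS rat, and MT rat 3 lay among the NS rats. The means were 13.16 ± 0.52 and 12.51 ± 0.36 (SD, n = 5 each), a difference of 0.65 (SE 0.26, 95% confidence interval 0.079 to 1.23), or 1.57-fold. Limma gave an unadjusted P of 0.0297 and an adjusted p of 0.261, and the exact two-sided permutation test over 252 assignments gave 0.0556. The second bright probe, NM_001033956.1, gave 0.62 (SE 0.26, limma adjusted p = 0.285). These Calca probes followed each other with r = 0.997 over the 10 rats, and they differed by an SD of 0.030, against 0.451 between rats of a group.

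The remaining Calca probe, NM_017338.2, was dim. Its spots were well above background in 5 of 5 MT rats and 0 of 5 NS rats, with background-subtracted intensities from 13.2 to 20.2 and from 2.27 to 15.5, respectively. In the NS group it therefore gives only a bound, and no fold is given because the MT mean did not exceed that bound. The lowest intensities, 2.27 and 2.55, were those of NS rats 8 and 9 on slide 3, the arrays with the fewest spots above background. The probe reached the filter through the MT arrays alone, so it had to differ, and it is left out of the counts above and given no test.

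Calcb encodes β-CGRP, a close relative of α-CGRP from its own gene. Its level was 10.56, 11.19, 10.13, 11.42 and 10.44 in MT rats 1 to 5 and 10.68, 10.19, 10.31, 9.97 and 10.14 in NS rats 6 to 10. MT rats 2 and 4 lay above all NS rats, whereas the others lay between or beside them. The difference was 0.49 (SE 0.25, 95% confidence interval −0.057 to 1.04, limma adjusted p = 0.350, exact permutation test, p = 0.119). On slide 2, the only slide with both groups, the single MT rat, rat 2, exceeded the mean of the 3 NS rats by 0.97 for Calca NM_001033955.1 and by 0.85 for Calcb. These are the same differences as with the slide as a fixed block. Without MT rat 4 the Calcb difference was 0.32, and without MT rat 3 it was 0.64. The unadjusted P of Calca NM_001033955.1 was above 0.05, between 0.0532 and 0.0733, when MT rat 1, 2, 4 or 5 or NS rat 7, 9 or 10 was left out.

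**Figure D2:**
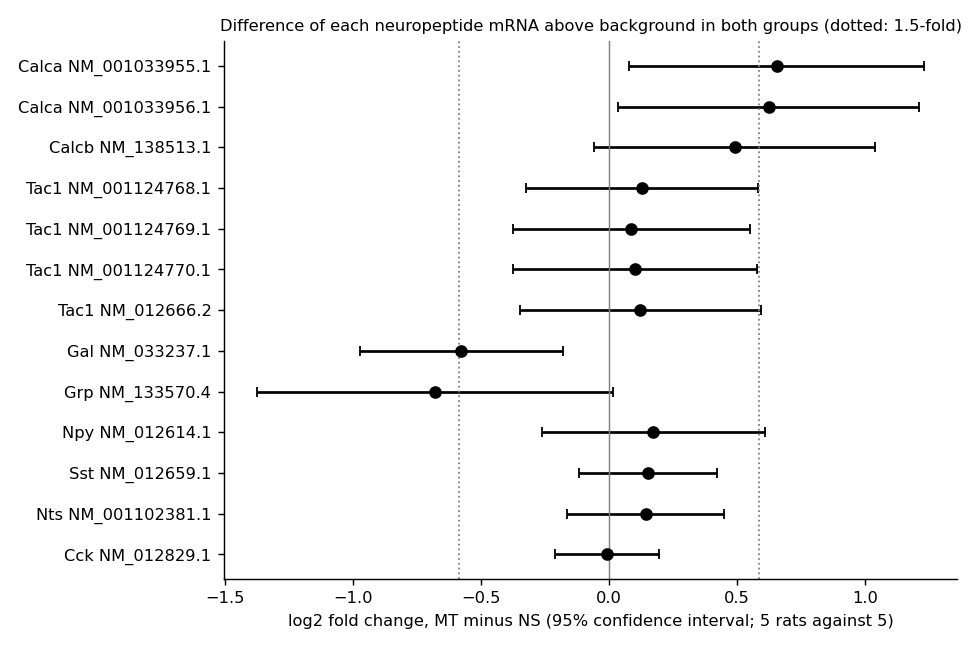
Difference in log2 intensity between the MT and NS groups for each of the 13 neuropeptide probes above background in both groups (horizontal axis; points are estimates, bars the 95% confidence intervals from limma, 5 rats against 5), with the RefSeq accession of each probe. The dotted lines mark a 1.5-fold difference; the intervals of the Calca probes and of Gal leave out 0 and all others span it.

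Tac1, the precursor of substance P and neurokinin A, is made by nociceptive afferents and by excitatory dorsal horn neurons. The probe for NM_012666.2 read 11.67, 12.23, 11.77, 11.61 and 12.75 in MT rats 1 to 5 and 12.01, 11.65, 12.08, 11.94 and 11.75 in NS rats 6 to 10. MT rats 5 and 2 had the highest values of all rats and the other MT rats lay close to the lowest NS values. The difference was 0.12 (SE 0.21, 95% confidence interval −0.35 to 0.59, limma adjusted p = 0.795). The 4 Tac1 probes gave differences of 0.087 to 0.13 and followed each other with r from 0.968 to 0.994, and the SD between probes was 0.041 against 0.357 between rats. Without MT rat 5 all of them turned negative, from −0.089 to −0.049.

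Besides Cck, the members with lower means in the MT group were Gal and Grp. Galanin is a mostly inhibitory peptide of superficial dorsal horn neurons and of some afferents. Its mRNA level was 10.56, 10.38, 10.84, 10.27 and 10.51 in MT rats 1 to 5 and 10.47, 11.40, 11.09, 11.32 and 11.17 in NS rats 6 to 10. Thus 4 NS rats lay above every MT rat and NS rat 6 lay among the MT rats. The means were 10.51 ± 0.21 and 11.09 ± 0.37 (SD, n = 5 each), a difference of −0.58 (SE 0.18, 95% confidence interval −0.97 to −0.18), or 1.49-fold, just short of the study's 1.5. Limma gave an unadjusted P of 0.0088 and an adjusted p of 0.176, and the exact permutation test gave 0.0317.

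Grp encodes gastrin-releasing peptide, an excitatory peptide known for its part in itch. Its level was 8.06, 7.45, 8.24, 7.64 and 7.44 in MT rats 1 to 5 and 7.28, 8.61, 8.56, 9.04 and 8.72 in NS rats 6 to 10. Again 4 NS rats lay above all MT rats, and the lowest value of all was that of NS rat 6. The difference was −0.68 (SE 0.31, 95% confidence interval −1.37 to 0.016), a 1.60-fold difference with an unadjusted P of 0.0546, an adjusted p of 0.315 (limma) and an exact permutation p of 0.0794. Without NS rat 6 it was −0.97. On slide 2, the level of MT rat 2 was below the mean of the 3 NS rats by −0.63 for Gal and −0.75 for Grp. Without the arrays of slide 3 the difference was −0.50 for Gal and −0.44 for Grp, and with arrays weighted by their quality it was −0.46 and −0.33. Galanin and gastrin-releasing peptide are, as background, both made by a group of lumbar projection neurons of the male rat. Any part of these neurons in the Gal and Grp differences was not tested.

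**Figure D3:**
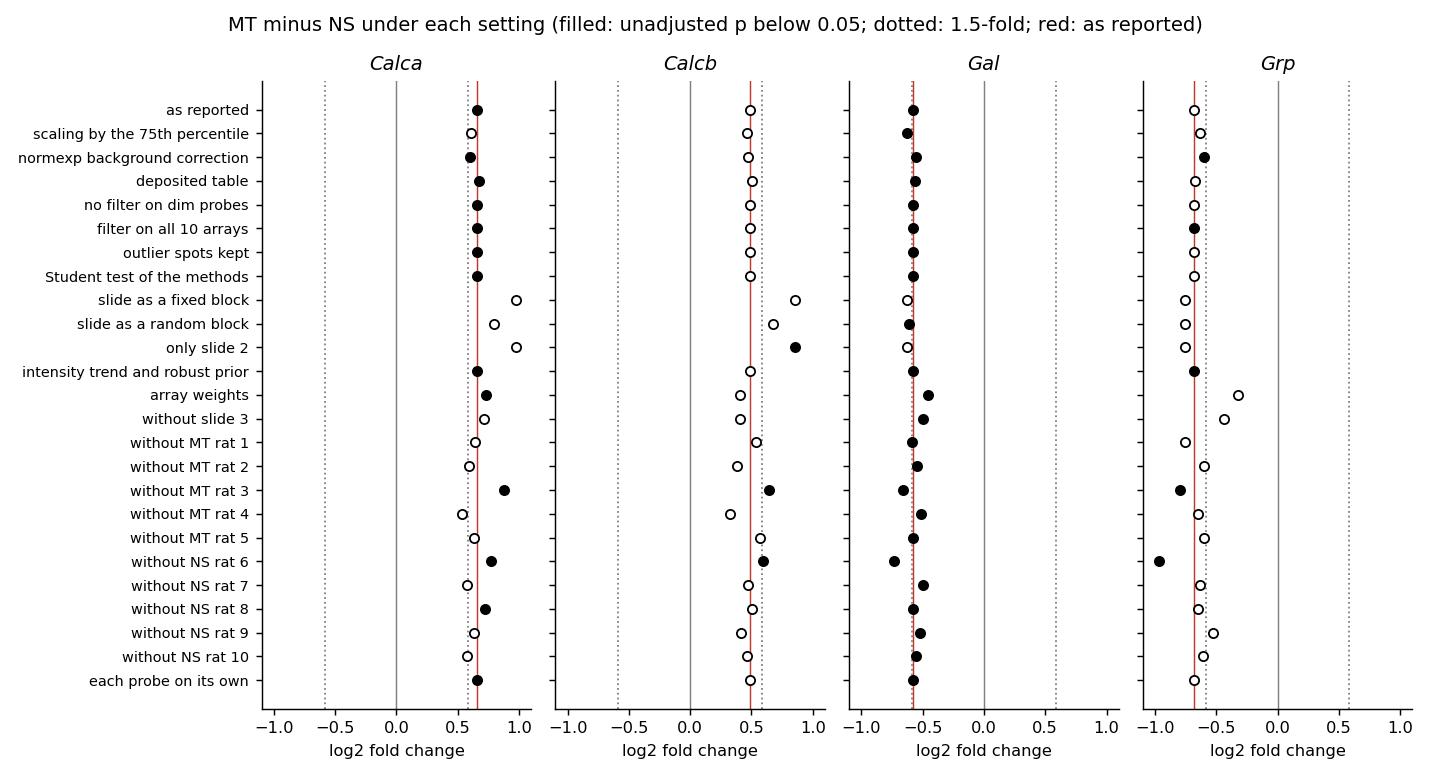
Difference between the MT and NS groups in log2 intensity (horizontal axis) for Calca (NM_001033955.1), Calcb, Gal and Grp as reported and under 24 other settings (rows), with filled points where the unadjusted P was below 0.05. All points of Calca and Calcb lie above 0 and all points of Gal and Grp below it; the P of Gal stayed below 0.05 under 22 settings, that of Calca under 12, of Grp under 5 and of Calcb under 3.

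The other members are peptides of dorsal horn interneurons. Npy, an inhibitory peptide of local interneurons, read 11.47, 12.04, 11.53, 11.38 and 12.38 in the MT rats and 11.90, 11.45, 11.61, 11.47 and 11.50 in the NS rats (difference 0.17, 95% confidence interval −0.26 to 0.61, limma adjusted p = 0.680). Sst, the precursor of somatostatin, which marks many excitatory interneurons, read 13.75, 13.90, 13.54, 13.76 and 14.22 against 13.58, 13.73, 13.86, 13.65 and 13.61 (0.15, −0.12 to 0.42, adjusted p = 0.549). Both had their highest values in MT rats 5 and 2, and the rest of the MT rats overlapped the NS rats. Nts, the neurotensin precursor, read 10.41, 10.73, 10.07, 10.55 and 10.85 against 10.54, 10.34, 10.42, 10.29 and 10.31 (0.14, −0.16 to 0.45, adjusted p = 0.624). For Nts, too, MT rats 5 and 2 were the highest, while MT rat 3 was the lowest of all rats. Cck, whose peptide is known to oppose morphine analgesia, read 12.83, 12.60, 12.87, 12.78 and 12.67 against 12.63, 12.69, 12.91, 12.94 and 12.62 (−0.0075, −0.21 to 0.20, adjusted p = 0.974). The interval of Cck was the narrowest of the 9 genes and leaves out a 1.5-fold difference in either direction, as those of Sst and Nts also do. These intervals come from the fit without a block and take no account of the slide.

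Next, the order of the rats was compared between members, with Pearson's r over the 10 rats, 36 pairs, and permutation tests with 100000 resamples. After adjustment over the pairs, 12 had p below 0.05, with r between −0.892 and 0.929 over all pairs. Calca and Calcb had r = 0.880 (permutation p = 0.00015, adjusted 0.0054, Spearman's rho = 0.842, permutation p = 0.00395, adjusted 0.0275). The value was 0.830 without the 2 rats farthest from the Calca median, 0.825 after the mean of each group was subtracted and 0.908 after that of each slide was. Gal and Grp had r = 0.923 (permutation p = 0.00062, adjusted 0.0074, rho = 0.855, permutation p = 0.00306, adjusted 0.0275). The value was 0.921 without the 2 rats farthest from the Grp median, 0.902 within groups and 0.920 within slides. These pairs thus kept their order among rats of the same group, and NS rat 6 and MT rat 3 were placed in the same way by both members of a pair.

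Between the pairs the order was opposite. Calca and Gal had r = −0.892 (permutation p = 0.00203, adjusted 0.0146, rho = −0.879, permutation p = 0.00156, adjusted 0.0256). The value was −0.853 without the 2 rats farthest from the Calca median, −0.819 within groups and −0.909 within slides. Rats with more Calca therefore had less Gal also within a group. Calcb and Gal had r = −0.838 (permutation p = 0.00147, adjusted 0.0132, rho = −0.867, permutation p = 0.00213, adjusted 0.0256). The value was −0.836 without the 2 rats farthest from the Calcb median, −0.770 within groups and −0.842 within slides. Tac1 and Npy formed a pair of their own, with r = 0.929 (permutation p = 0.00039, adjusted 0.0070, rho = 0.939, permutation p = 0.00017, adjusted 0.0061), but with 0.663 without the 2 rats farthest from the Tac1 median, so that much of this relation lay in MT rats 5 and 2. Within slides the r of Tac1 and Npy was 0.988.

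**Figure D4:**
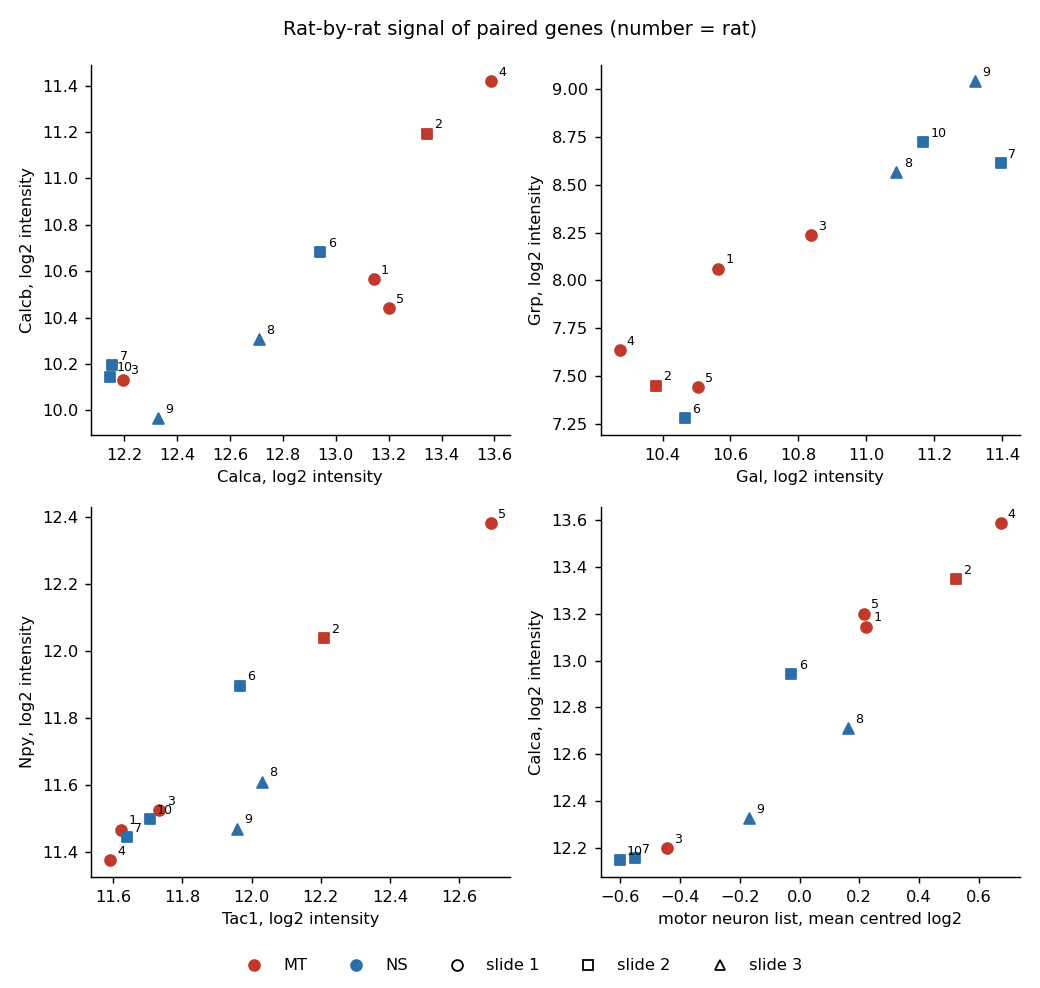
Log2 intensity of Calca against Calcb, Gal against Grp and Tac1 against Npy in the 10 rats, and of the motor neuron marker list (mean of its 6 RNAs after centring each on its own mean) against Calca. Points are rats, coloured by group and shaped by slide; the r values are 0.880, 0.923, 0.929 and 0.957 in this order, and in the Gal panel NS rat 6 lies with the MT rats.

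To describe what else shared these orders, the 3 named mRNAs with the highest r over the 10 rats were listed for the 3 members with the smallest P, with no test, among 12454 mRNAs for Calca and 12456 for Gal and for Grp. For Calca NM_001033955.1 they were Csf3 (r = 0.984), the cytokine G-CSF, Tgm1 (0.978), a transglutaminase, and Pf4 (0.972), platelet factor 4. For Gal they were Ddit4 (0.991), an inhibitor of mTOR signalling, Nedd9 (0.982), a scaffold protein, and Cd22 (0.939), a lectin of B cells. For Grp they were Tph2 (0.971), the enzyme of neuronal serotonin synthesis, Ddit4 (0.958) and Or8w1b (0.946), an olfactory receptor gene. Ddit4, near the top for both Gal and Grp, read 13.69, 13.46, 13.83, 13.45 and 13.58 in the MT rats and 13.47, 14.29, 14.11, 14.31 and 14.12 in the NS rats, with NS rat 6 again among the MT rats (difference −0.46, limma adjusted p = 0.218). The values of Csf3 ran from 6.88 in MT rat 3 to 9.19 in MT rat 4, the same ends of the MT group as for Calca. Of 20220 RNAs compared with them, 222 had r above 0.8 with Gal and 256 with Grp, and of 20218 RNAs 243 did so with Calca. Cck shared its order with more RNAs than any other member, with 1323 of 20220 RNAs above 0.8 and 1226 below −0.8. This order ran close to that of the slides. Cck read 12.60 to 12.69 on slide 2, 12.67 to 12.87 on slide 1 and 12.91 to 12.94 on slide 3. The part of the slide in this shared order was not tested.

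Since motor neurons also make CGRP, the levels of cell markers were set beside the members. Of the motor neuron list, 6 of 10 genes were measured, and all 6 had higher means in the MT group, with a median difference of 0.29. None passed the adjusted threshold, and Mmp9 alone met the study's criteria (2.83-fold, limma adjusted p = 0.209). The mean level of the list, after each RNA was centred on its own mean, ran from −0.44 to 0.67 in the MT group and from −0.60 to 0.16 in the NS group. Over the 10 rats, this level followed Calca with r = 0.957 (permutation p = 1e-05, the smallest that 100000 resamples give, adjusted over 117 relations of 9 members with 13 lists 0.0012, rho = 0.976, permutation p = 1e-05, adjusted 0.0012). The value was 0.937 without the 2 rats farthest from the median of the list and within groups, and 0.986 within slides. In all relations with lists, the 2 farthest rats are those farthest from the list median. Mmp9 is also made by neutrophils, and without it r was 0.922. Of the other RNAs, given with no test, Slc18a3, Prph and Slc5a7 followed Calca with r of 0.965, 0.938 and 0.905, but Isl1 and Isl2 with only 0.620 and 0.373. Isl1 and Isl2 were dim, each well above background on 8 arrays, with group means between 4.27 and 4.69.

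Slc18a3, the vesicular acetylcholine transporter of motor neurons, read 12.78, 12.97, 12.26, 13.10 and 12.90 in MT rats 1 to 5 and 12.90, 12.39, 12.57, 12.23 and 12.20 in NS rats 6 to 10. It was lowest in MT rat 3 among the MT rats and highest in NS rat 6 among the NS rats, as Calca was, and Prph shared this pattern, whereas in the NS group Isl1, Slc5a7 and Mmp9 were highest in rat 8 and Isl2 in rat 10 (Slc18a3 difference 0.34, SE 0.18, limma adjusted p = 0.372). Calcb followed the list with r = 0.839 (permutation p = 0.00158, adjusted 0.0616, rho = 0.818, permutation p = 0.00578, adjusted 0.0851; 0.868 without the 2 farthest rats, 0.768 within groups and 0.949 within slides). The part of the motor neuron share of a sample in the Calca and Calcb differences was not tested.

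Markers of dorsal root ganglion neurons, whose cell bodies should be absent, were measured for 8 of 12 genes, with a median difference of 0.068. Ret, Htr3a, P2rx3, Trpv1 and Trpm8, some of which neurons of the cord also express, were well above background on all 10 arrays, whereas Scn10a, Scn11a and Trpa1, channels of sensory neurons, were so on 6 to 8 arrays with mean levels between 3.26 and 3.72, and Mrgprd did not pass the filter. None of the list met the study's criteria in either direction. Its mean centred level ran from −0.14 to 0.12 in the MT group and from −0.45 to 0.49 in the NS group. The general neuron list had a median difference of 0.19 and a level of 0.027 to 0.14 in the MT group against −0.19 to 0.029 in the NS group, and it followed Gal with r = −0.857 (permutation p = 0.00066, adjusted 0.0386, rho = −0.891, permutation p = 0.00099, adjusted 0.0290; −0.801 without the 2 farthest rats, −0.683 within groups and −0.935 within slides). This relation and that of Calca with the motor neuron list were the only 2 of the 117 with an adjusted permutation p of r below 0.05. By rho, 3 further relations had one below 0.05, Calca with the general neuron list (rho = 0.915, permutation p = 0.00044, adjusted 0.0172, with r = 0.805, permutation p = 0.00309, adjusted 0.0868) and Grp and Nts with the meningeal fibroblast list. The meningeal level followed Grp with rho = −0.927 (permutation p = 0.00028, adjusted 0.0164) and r = −0.757 (permutation p = 0.00376, adjusted 0.0868). For Nts, rho was 0.879 (permutation p = 0.00175, adjusted 0.0410) and r was 0.537 (permutation p = 0.113, adjusted 0.340). The 7 meningeal RNAs had a median difference of 0.22, and their mean centred level ran from −0.048 to 0.26 in the MT group and from −0.91 to 0.51 in the NS group, with NS rat 6 the highest. Without the 2 farthest rats r was 0.706 for Calca, −0.767 for Grp and 0.634 for Nts. The part of meningeal tissue in these levels was not tested. The dorsal horn lists differed less, with medians of 0.018 for excitatory and −0.098 for inhibitory neurons, and no member of either met the criteria.

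In addition, markers of blood and microglial cells were examined. Of the 5 neutrophil RNAs, 4 had higher means in the MT group and 1, Lcn2, had a lower mean (−0.24). Their median difference of 0.63 was that of Ngp, which was well above background on only 5 arrays. S100a8 (1.44, limma adjusted p = 0.121) and Np4 (1.31, limma adjusted p = 0.093) met the study's criteria. The mean centred level of the list did not overlap between the groups, from 0.22 to 0.51 in the MT group against −0.49 to −0.31 in the NS group. The list was chosen with earlier results of these data known. The study lists S100a8 and Np4 among its top up-regulated mRNAs from these arrays, so this separation is no independent result. Among all single RNAs, 5.6% were separated. All 9 microglial RNAs had lower means in the MT group (median −0.34), with Tmem119 (−1.24, limma adjusted p = 0.0555) past the criteria. The mean centred microglial level ran from −0.51 to 0.070 in the MT group and from −0.10 to 0.43 in the NS group. The part of these cells in the neuropeptide differences was not tested.

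The receptors of the 10 peptides were examined as the partners through which they act. Of 30 listed genes, 26 were tested with 27 RNAs, of which 16 had higher and 11 lower means in the MT group, with a median of 0.050. No receptor passed the adjusted threshold or met the study's criteria in either direction, and 5 of the 27 RNAs had an unadjusted P below 0.05, as 16.4% of all RNAs did. Tacr1, the substance P receptor, read 10.14, 10.23, 10.23, 10.18 and 10.31 in the MT rats and 10.09, 9.96, 9.74, 9.76 and 9.97 in the NS rats. Every MT rat was above every NS rat, but the difference was small (0.31, SE 0.082, limma adjusted p = 0.138). On the same criterion 5.6% of all RNAs were separated, and the lowest 2 values were those of slide 3.

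Calcrl, the receptor subunit that binds CGRP together with Ramp1, was higher in the MT mean by 0.25 (SE 0.085, limma adjusted p = 0.201). Its values ran from 5.50 to 5.87 in the MT group and from 5.29 to 5.51 in the NS group, so the groups overlapped only where MT rat 5 met the highest NS rats. Ramp1, its partner, gave −0.17 (SE 0.10, adjusted p = 0.424). Cckbr, the main cholecystokinin receptor of the central nervous system, read 7.70, 7.83, 7.09, 7.98 and 7.96 in the MT rats and 6.89, 7.31, 7.30, 7.43 and 7.26 in the NS rats (0.47, SE 0.17, limma adjusted p = 0.237). For Cckbr 4 MT rats were above all NS rats, while MT rat 3, the rat that also had low Calca, lay among the NS rats. The difference of Cck itself, its ligand gene, was −0.0075.

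The neuropeptide Y receptors Npy1r and Npy5r had lower means in the MT group, by −0.26 (SE 0.11, limma adjusted p = 0.283) and −0.27 (SE 0.11, adjusted p = 0.262). Npy1r ran from 8.78 to 8.94 in the MT group and from 8.85 to 9.41 in the NS group, and Npy5r from 7.72 to 8.17 and from 8.14 to 8.55, so both overlapped. The galanin receptors Galr1, Galr2 and Galr3 gave 0.020, 0.19 and −0.20, and Grpr, the receptor of gastrin-releasing peptide, was dim and gave 0.28 with an interval from −0.90 to 1.46. The somatostatin receptors lay between −0.16 (Sstr1) and 0.33 (Sstr5), and Ntsr1, a neurotensin receptor, gave 0.0092. Npffr1, a neuropeptide FF receptor, gave 0.47 (adjusted p = 0.404) at a level near background, and Npffr2 did not pass the filter. Npy4r had the largest receptor difference (0.68, −0.76 to 2.13), with its 2 lowest values, 2.34 and 2.57, on slide 3.

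**Figure D5:**
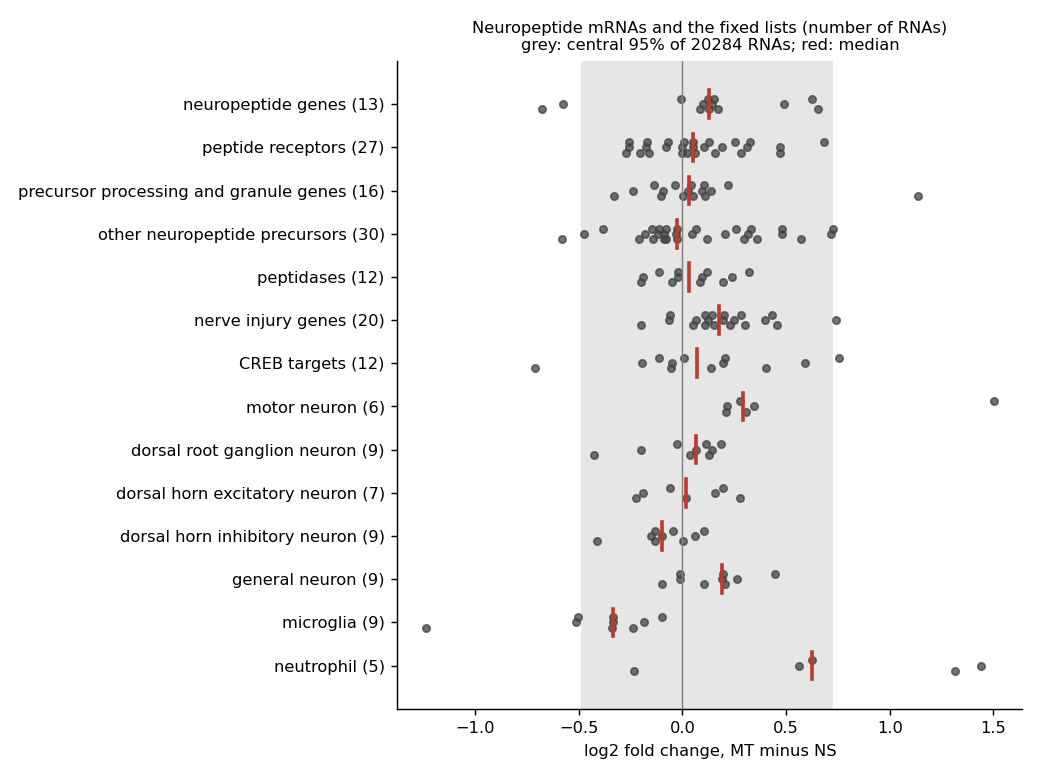
Difference between the MT and NS groups in log2 intensity (horizontal axis) for the 13 bright neuropeptide probes and for the RNAs of each list (points; number in brackets), with list medians in red and the central 95% of all 20284 RNAs, −0.48 to 0.72, in grey. The medians of receptors, peptidases and granule genes lie close to 0, that of the microglial list below it and that of the neutrophil list above it, while single RNAs such as the dim Sytl4 (1.14) lie outside the grey range.

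The machinery that makes and removes peptides was close to the average of the array. The 16 RNAs of precursor processing and granule genes had a median of 0.033. Of them, 1 met the study's criteria, Sytl4, a granule-docking protein, at 1.14 (SE 0.43, limma adjusted p = 0.247) and dim mean levels of 3.47 (MT) and 2.33 (NS). Sytl4 was well above background on 5 arrays, the fewest that the filter allows. NS rats 8 and 9 on slide 3 read 1.18 and 1.21, against 3.02 to 3.20 in the other NS rats. The Sytl4 difference was 0.083 with normexp background correction and 0.47 with the values the authors deposited, and neither met the criteria. The 12 peptidase RNAs had a median of 0.032 with none past the criteria. Of 38 other precursor genes, 30 were tested, with 14 higher and 16 lower and a median of −0.026. Avp, the vasopressin precursor, met the criteria (0.73, SE 0.24, limma adjusted p = 0.188). No gene of these lists passed the adjusted threshold.

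Of genes known to respond to nerve injury, 17 of 20 RNAs had higher means in the MT group (median 0.18), as 49.8% of all RNAs tested had. The 20 RNAs belong to 17 genes, and the RNAs of Cacna2d1 all count as higher. None passed the adjusted threshold, and Atf3, a transcription factor of injured neurons, met the criteria (0.74, SE 0.21, limma adjusted p = 0.151). Gal, which is known to be raised in injured afferent neurons, had a lower mean here, but the cell bodies of those neurons lie outside this tissue. Any part of nerve injury in the neuropeptide differences was not tested. Of 12 RNAs of known CREB targets, 7 were higher and 5 lower (median 0.072), with 2 past the criteria as higher and 1 as lower in the MT group. The largest were Fos (0.75, SE 0.26, limma adjusted p = 0.211) and Per1 (−0.71, SE 0.22, adjusted p = 0.183), a clock gene.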

How the data were processed

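The authors hybridized total RNA of 10 rats, extracted the spots with Agilent Feature Extraction 11.0.1.1 (the submitters' processing notes) and deposited, per array, the background-subtracted intensity of each spot with its flags. A series-wide file that the authors deposited gives log2 intensities after quantile normalization. Its entries were matched to the probes (24484 of 24529), and over the neuropeptide probes its r with the values used here was at least 0.9996 on each array.

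Intensities below 1 were to be set to 1 (the lowest was 1.71), log2 transformed and quantile normalized in limma (3.58.1, with R 4.3.3 and the data.table package 1.17.8). Spots marked as outliers were removed (0 of those of the neuropeptide probes), and spots of a probe and probes of an accession were averaged. The filter asked for a share over 0.5 of spots well above background on 5 arrays or more. MT and NS were compared with limma (lmFit, eBayes) over 20284 RNAs, with Benjamini-Hochberg adjustment over all of them. The methods word the criteria as a log2 fold change over 1.5 with a P under 0.05. As the study's tables list values on the linear scale, a linear fold over 1.5 was used and is called the study's criteria here. Read literally, 22 RNAs and 0 neuropeptide probes met them. Single values were also tested by exact permutation over 252 assignments. Members and lists were chosen with earlier results of these data known. Named were the neuropeptide genes, their receptors, for each other list up to 2 RNAs with the largest fold past the criteria (none passed the adjusted threshold), and the 3 most similar mRNAs of the 3 members with the smallest P; other marker genes were named after their values were seen.

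Symbols came from RefSeq (GRCr8), which named 14274 of 15323 mRNA probes. Scan records that arrays share were taken as 1 slide. The normexp alternative used median signals with an offset of 50. The steps were tested on simulated arrays. Plots used matplotlib 3.10.9 and pandas 2.3.3 (Python 3.11.15). The number of arrays limits the precision.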

Additional observations from a re-analysis of the deposited data

Results flagged for a closer look

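Over the 14 probes and 2 groups, 28 groups of 5 rats were searched for a rat far from the others by Dixon's gap ratio, and 1 passed the critical value of 0.71. This was Grp in the NS group, where NS rat 6 read 7.28 and the nearest NS rat 8.56 (ratio 0.730). Chance alone flags about 1 in 20 groups. NS rat 6 was also the lowest NS rat for Gal, at 10.47 (ratio 0.670), and MT rat 3 the lowest MT rat for Calca NM_001033955.1, at 12.28 (ratio 0.678), but neither passed.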

How the results depend on the processing

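The number of neuropeptide genes past an adjusted p of 0.05 was 0 under all 25 alternatives. The number past the study's criteria, 1 as reported, was 2 with scaling by the 75th percentile (Calca and Gal) and 2 with normexp background correction, with the filter on all 10 arrays and with an intensity trend (Calca and Grp each time), and 0 with the slide as a fixed block and without slide 3. With the slide as a random block it was 1 (Gal) and with slide 2 alone 1 (Calcb), where 1 MT rat stands against 3 NS rats and is assumed to vary as they do. When 1 rat was left out it ranged from 1 to 4, with 4 (Calca, Calcb, Gal and Grp) without MT rat 3 or without NS rat 6, and 2 (Calca and Gal) without MT rat 1. These counts include the dim Calca probe NM_017338.2, which passed the filter through the MT arrays alone. By the 13 bright probes Calca met the criteria under 12 of 24 alternatives. The count was then 1 (Gal) with scaling by the 75th percentile and without MT rat 1, and 0 without MT rat 2, 4 or 5 or NS rat 7, 9 or 10, with a range of 0 to 4 when 1 rat was left out, and as above under the others.

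Over all RNAs, 40 passed the adjusted p as reported, against 147 with normexp, 66 with the deposited table, 12 with no filter, 120 with the filter on all 10 arrays, 131 with an intensity trend, 224 with array weights, 2 without slide 3, 0 with a slide block, fixed or random, or with slide 2 alone, and 0 to 84 when 1 rat was left out (0 without MT rat 1 or NS rat 9, 84 without MT rat 2). With the slide as a fixed block, 839 RNAs still had an unadjusted P below 0.05 in limma, and 1423 with it as a random block (within-slide correlation 0.464). Scaling by the 75th percentile moved the median of all RNAs from −0.0013 to 0.074 and the RNAs past the criteria from 353 higher and 202 lower to 708 and 112.

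Of 679 single-gene values recomputed, 661 kept their direction and side of the adjusted threshold. Cck turned positive with the deposited table (0.0023), array weights (0.093), without slide 3 (0.10), without MT rat 2 (0.030) or 5 (0.011) and without NS rat 8 (0.030) or 9 (0.039), and lay between −0.043 and 0.039 when single rats were left out. When single rats were left out, the Tac1 differences ranged from −0.082 to 0.20 (NM_001124770.1), −0.089 to 0.18 (NM_001124769.1), −0.049 to 0.22 (NM_001124768.1) and −0.063 to 0.22 (NM_012666.2), negative without MT rat 5 only. The causes were not tested. Tmem119 passed the adjusted threshold under 7 alternatives. No paired analysis was possible because rats 1 to 5 and 6 to 10 share no replicate number. The average over all probes of a gene was added after seeing the data and moved no call of a member. Signal over background limits the dim probes of Calca, Grpr, Npy4r, Npffr1, Sytl4, Isl1, Isl2 and Ngp.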
